A study of Mus musculus with 12 samples.

Results

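Ly6G+ cells taken from the spleens of mice aged 14 days were compared with Ly6G+ spleen cells of mice aged 6 weeks, over all genes of the count table. The 3 libraries labelled 14 days and the 3 labelled 6 weeks were chosen by their labels alone, 6 of the 12 libraries of a series that also sampled mice at 2 days and 7 days. All of these cells carry the label PMN-MDSC, that is, neutrophil-type myeloid-derived suppressor cells. The series asks how neutrophils of newborns come to hold a passing ability to suppress. No agent, allele or strain is named for either age. Sex, sequencing batch and how many mice were pooled into a library are not given either. Whether replicate libraries stem from different animals is thus not known, and the p-values speak only of the variation among the libraries, part of which may be technical.

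Neutrophils are made in the bone marrow, and in young mice also in the spleen. While they mature they fill primary granules, then secondary granules, then gelatinase granules, and they stop dividing before they leave for the blood, where the receptor Cxcr2 guides them to sites of inflammation. Myeloid-derived suppressor cells are defined by what they do: they hold back T cells through products such as prostaglandin E2, arginase, nitric oxide and reactive oxygen. Ly6G is a surface protein of mouse neutrophils, and a fraction sorted by it can still carry RNA of other spleen cells, such as the macrophages of the red pulp that take up old red cells.

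Polyadenylated RNA was sequenced, and the deposited values are counts per gene. Totals ran from 34495767 to 37328421 counts in the 14-day libraries and from 38013590 to 38795913 in the 6-week libraries, and 18912 to 19791 genes had at least 1 count in each of the 6. Levels are given as CPM, counts scaled to the normalized library size of each sample. CPM is not divided by transcript length, so it compares 1 gene between libraries and not 1 gene with another. Neutrophil genes were present at both ages as the label requires. Ly6g was at 189.6, 159 and 156 CPM at 14 days, against 180.5, 185 and 168 CPM at 6 weeks, with overlapping ranges (log2 fold change -0.08, SE 0.15, adjusted p = 0.753). S100a8, a subunit of calprotectin, was at 13300.4, 12250.4 and 10262 CPM at 14 days, against 12572, 12579.9 and 13316 CPM at 6 weeks. The 14-day replicate 1 stood apart from its partners: its Spearman correlation with them across genes was 0.986, against 0.994 between the partners. It held more transcripts of immediate early and inflammatory genes and fewer of macrophages and lymphocytes, and results that it moves are given with and without it. Counts of Y-linked genes were 0 or 1 in each of the 6 libraries, so both ages looked alike in this respect. The labels name no strain or source of the mice, so in every result a difference of genetic background between the ages and a difference of age cannot be told apart.

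Of 15494 genes tested, 1500 (9.68%) were higher and 1434 (9.26%) lower at 14 days at a Benjamini-Hochberg adjusted p below 0.05 in edgeR's quasi-likelihood test, 18.9% in all. Every adjusted p below comes from that test, and every fold change is log2 of 14 days over 6 weeks with its standard error (SE). More than 2-fold differences were found in 632 genes (4.08%) on the higher side and 799 (5.16%) on the lower side. The median over all tested genes was 0.00. The counts of members of each gene list below stand beside these shares of 9.68% higher and 9.26% lower. These counts depend on single libraries. They were 823 higher and 886 lower genes without 6-week replicate 1, and 781 and 896 once 6-week replicate 3 was left out. They reached 2422 and 2263 without 2-day replicate 2. That library enters through the shared estimate of the spread. Genes given with their library values below kept their call under each of 21 other settings unless stated otherwise. Those picked as the largest rises or falls were drawn only from called genes without overlap between the ages. For them, such as Thbs1, the stefin A genes, Fosb, Nr4a1, H2-D1 and Cxcr1, the lack of overlap was set by that rule.

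**Figure D1:**
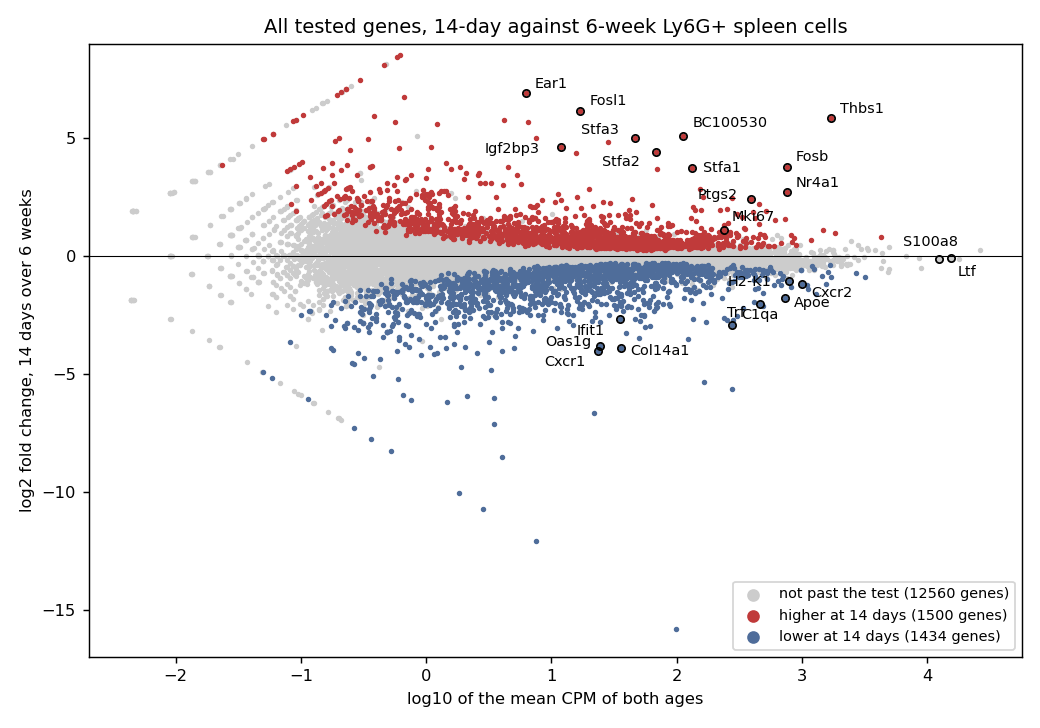
Each point is 1 tested gene, placed by the log10 of its mean CPM over both ages (horizontal) and its log2 fold change of 14 days over 6 weeks (vertical), with the named genes circled; 31 tested genes with no count at either age are not drawn. Thbs1 lies far above the other genes of its level at 5.85, the stefin A genes lie between 3.73 and 5.09, and S100a8 and Ltf lie near 0.

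Thbs1 and the stefin A genes were among the leading rises. Thbs1 encodes thrombospondin-1, a secreted glycoprotein that binds CD36 and CD47 and can release transforming growth factor beta from its latent form (chromosome 2, 118111876 to 118127133, build mm10). It was at 3891, 3146 and 2949 CPM at 14 days, against 45.1, 60.4 and 67.6 CPM at 6 weeks. The lowest 14-day library was thus far above the highest 6-week library (log2 fold change 5.85, SE 0.25, adjusted p = 1.08e-07), a 57.7-fold difference in the fit. Its receptor gene Cd36, a scavenger receptor that also takes up fatty acids, was at 52.957, 43.9 and 36.9 CPM at 14 days, against 11.7, 14.015 and 13.971 CPM at 6 weeks (log2 fold change 1.75, SE 0.14, adjusted p = 1.47e-05).

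A cluster of 4 genes on chromosome 16 that encode stefin A proteins, inhibitors of cysteine proteases such as cathepsins, moved together. Stfa1 was at 210.4, 247 and 283 CPM at 14 days, against 20.7, 15.6 and 19.5 CPM at 6 weeks (log2 fold change 3.73, SE 0.24, adjusted p = 3.04e-06). For Stfa2 the levels were 106, 128 and 158 CPM at 14 days, against 7.39, 4.69 and 6.12 CPM at 6 weeks (log2 fold change 4.43, SE 0.28, adjusted p = 2.91e-06), and for Stfa3 62.3, 88.8 and 119.6 CPM at 14 days, against 3.15, 2.70 and 2.43 CPM at 6 weeks (log2 fold change 5.03, SE 0.28, adjusted p = 1.19e-06). BC100530, a stefin A family member, was at 170.4, 220.3 and 266 CPM at 14 days, against 7.16, 5.33 and 6.78 CPM at 6 weeks (log2 fold change 5.09, SE 0.29, adjusted p = 1.26e-06). In each of these genes all 14-day libraries lay at least several-fold above all 6-week libraries, and 14-day replicate 1 was the lowest of its age. The copies are alike in sequence, so how reads were divided among them is uncertain, and they do not count as independent genes. The likeness reaches into their promoters, which are shown for that reason: RefSeq promoters (250 bases before to 50 after the start, build GRCm38.p6, strand of the gene) of Stfa1 (chr16:36276898-36277197, plus strand), Stfa2 (chr16:36408314-36408613, minus) and Stfa3 (chr16:36455343-36455642, minus) matched each other at 79.3% to 81.0% of aligned positions.
Stfa1: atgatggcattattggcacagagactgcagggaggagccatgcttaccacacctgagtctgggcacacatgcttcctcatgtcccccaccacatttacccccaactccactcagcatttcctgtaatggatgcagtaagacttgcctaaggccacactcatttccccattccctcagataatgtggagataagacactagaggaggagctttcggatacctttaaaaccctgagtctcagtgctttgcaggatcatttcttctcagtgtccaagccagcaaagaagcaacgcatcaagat
Stfa2: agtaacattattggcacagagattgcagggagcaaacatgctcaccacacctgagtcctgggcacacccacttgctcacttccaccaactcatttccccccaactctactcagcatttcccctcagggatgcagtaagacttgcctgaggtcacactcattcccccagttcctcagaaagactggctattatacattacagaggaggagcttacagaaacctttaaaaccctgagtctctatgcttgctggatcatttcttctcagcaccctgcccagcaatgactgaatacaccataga
Stfa3: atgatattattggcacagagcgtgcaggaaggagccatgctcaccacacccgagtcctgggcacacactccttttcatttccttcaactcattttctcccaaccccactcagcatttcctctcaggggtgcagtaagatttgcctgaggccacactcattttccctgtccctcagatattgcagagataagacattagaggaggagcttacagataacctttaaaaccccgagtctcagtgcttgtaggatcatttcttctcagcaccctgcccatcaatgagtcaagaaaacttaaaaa

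The wider list of S100, stefin A and antiprotease genes did not move as 1 block. Of 17 tested members 6 were higher, 5 of them of the stefin A family plus Serpinb2 (1.38), against 9.68% of all tested genes, and 2 were lower, against 9.26%: the secreted protein gene Wfdc17 and S100a6 (-1.03), with a median log2 fold change of -0.09. S100a9, the partner of S100a8, was at 18854, 17465 and 15267 CPM at 14 days, against 18464, 18900.1 and 19549 CPM at 6 weeks, with overlapping ranges (log2 fold change -0.14, SE 0.20, adjusted p = 0.677). Wfdc17 was at 41.6, 9.04 and 7.64 CPM at 14 days, against 328, 177 and 172 CPM at 6 weeks (log2 fold change -3.54, SE 0.67, adjusted p = 0.00344), and its log2 fold change was -4.76 without 14-day replicate 1, the highest library of its age.

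Genes of a fetal kind were higher in part. Igf2bp3 encodes an RNA-binding protein that is made in fetal tissue and largely switched off afterwards (chromosome 6, 49085223 to 49214957). It was at 23.7, 21.6 and 22.9 CPM at 14 days, against 0.976, 0.742 and 1.07 CPM at 6 weeks, so that the 3 libraries of each age lay close together and the ages far apart (log2 fold change 4.61, SE 0.19, adjusted p = 1.08e-07). Of 16 tested fetal-type genes 4 were higher and 0 lower, with a median of 1.14, and 7 were higher without 2-day replicate 2. The others called were Igf2bp1, of the same family, with a mean of 0.0466 CPM at 14 days and no counts at 6 weeks, and the imprinted genes Mest and Peg3. Mest was at 1.72, 2.37 and 1.67 CPM at 14 days, against 0.613, 0.583 and 0.629 CPM at 6 weeks (log2 fold change 1.65, SE 0.36, adjusted p = 0.00725). Peg3 was at most 0.135 CPM in any 14-day library and had no counts at 6 weeks, so that no fold is given for either of these genes near the limit of detection (Peg3 and Igf2bp1). Ces1d, a carboxylesterase gene, was at 28.8, 31.6 and 30.4 CPM at 14 days, against 1.17, 1.11 and 2.05 CPM at 6 weeks (log2 fold change 4.39, SE 0.23, adjusted p = 9.05e-07).

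Granule genes moved both ways. Olfm4, a secondary granule protein that only some neutrophils carry, was at 387, 395 and 416 CPM at 14 days, against 97.2, 111 and 95.4 CPM at 6 weeks (log2 fold change 1.98, SE 0.17, adjusted p = 2.07e-05), and all 14-day libraries were above all 6-week libraries. Among 22 genes of secondary granules the test called 5 higher (22.7%) and 0 lower, with a median of 0.10. The other 4 were Mmp8, a collagenase, Chil3, a chitinase-like lectin also called Ym1, Abca13 and Itgb2l (0.54). Chil3 was at 4829.7, 5963 and 5643 CPM at 14 days, against 2420.3, 3658 and 3185 CPM at 6 weeks (log2 fold change 0.83, SE 0.17, adjusted p = 0.00505). Mmp8 was at 2754, 2306 and 2292 CPM at 14 days, against 1213, 1295 and 1267 CPM at 6 weeks (log2 fold change 0.96, SE 0.21, adjusted p = 0.0083). Abca13 was at 339, 308 and 299.8 CPM at 14 days, against 137, 214 and 162 CPM at 6 weeks (log2 fold change 0.88, SE 0.16, adjusted p = 0.00253). Chil3 and Mmp8 were drawn from genes without overlap, and Abca13 did not overlap between the ages either.

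The main cargo genes of the same granules did not pass the test. Ltf, which encodes lactoferrin, was at 17090.2, 13585 and 14486 CPM at 14 days, against 11864, 20004 and 15292 CPM at 6 weeks (log2 fold change -0.06, SE 0.21, adjusted p = 0.873). Ngp was at 29939.7, 26794 and 29659 CPM at 14 days, against 16868, 30618 and 24726 CPM at 6 weeks, and Lcn2, the iron-siderophore binder lipocalin-2, at 7086, 6159 and 6976 CPM at 14 days, against 5338, 8758 and 6359 CPM at 6 weeks, and in each the lowest and the highest library were both of 6 weeks (adjusted p = 0.481 for Ngp and 0.969 for Lcn2). Camp, the cathelicidin gene, was at 5881, 5764 and 5319 CPM at 14 days, against 3566, 4910.0 and 4369 CPM at 6 weeks without overlap but missed the threshold (log2 fold change 0.40, SE 0.16, adjusted p = 0.092). It was called by DESeq2 (adjusted p = 0.0245) and without 2-day replicate 2 (0.0341), within a range of 0.0245 to 0.304 over 21 settings.

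Of 15 primary granule genes, which are made first, 1 was higher (Gusb, 0.37) and 3 were lower (Ctsc, Calr and Nkg7). The higher count was 0 without an expression filter and when 14-day replicate 2 or 3 or 6-week replicate 1 or 3 was left out. It was 2 in the fit of the 6 libraries alone and without 2-day replicate 2. Nkg7 also counts among the T and NK cell markers below, and Calr among the genes of the unfolded protein response. Ctsc, the protease that activates the granule serine proteases and that macrophages also make, was at 48.3, 75.6 and 80.001 CPM at 14 days, against 179, 184 and 175 CPM at 6 weeks (log2 fold change -1.40, SE 0.17, adjusted p = 0.000209). Mpo, myeloperoxidase, was at 25.2, 35.3 and 39.043 CPM at 14 days, against 12.3, 37.9 and 17.4 CPM at 6 weeks, with overlapping ranges (log2 fold change 0.56, SE 0.47, adjusted p = 0.453). Elane, neutrophil elastase, was at 6.63, 12.8 and 12.3 CPM at 14 days, against 4.35, 11.3 and 5.91 CPM at 6 weeks (log2 fold change 0.56, SE 0.47, adjusted p = 0.448). Of 18 gelatinase granule and secretory vesicle genes 1 was higher and 1 lower, 5.56% each and below the shares of all tested genes. The higher one was Fcnb, a ficolin gene at 204, 222 and 229 CPM at 14 days, against 74.958, 117 and 90.9 CPM at 6 weeks (log2 fold change 1.21, SE 0.25, adjusted p = 0.0063). The lower one was Cfp, which encodes the complement regulator properdin, at 305, 253 and 260.4 CPM at 14 days, against 588, 519 and 547 CPM at 6 weeks (log2 fold change -1.01, SE 0.15, adjusted p = 0.000807), and 3 were lower without 14-day replicate 1, 4 without 2-day replicate 1, and 5 without 2-day replicate 2 or in the fit of the 6 libraries alone. Mmp9, gelatinase, was at 4928, 3332 and 3747 CPM at 14 days, against 6321, 5729.7 and 5654 CPM at 6 weeks without overlap (log2 fold change -0.56, SE 0.21, adjusted p = 0.0815), and passed under 7 of 21 settings, whose adjusted p ranged from 0.0142 to 0.213. Cebpe, the factor needed for secondary granules, did not differ past the test (log2 fold change 0.09, SE 0.33, adjusted p = 0.888).

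**Figure D2:**
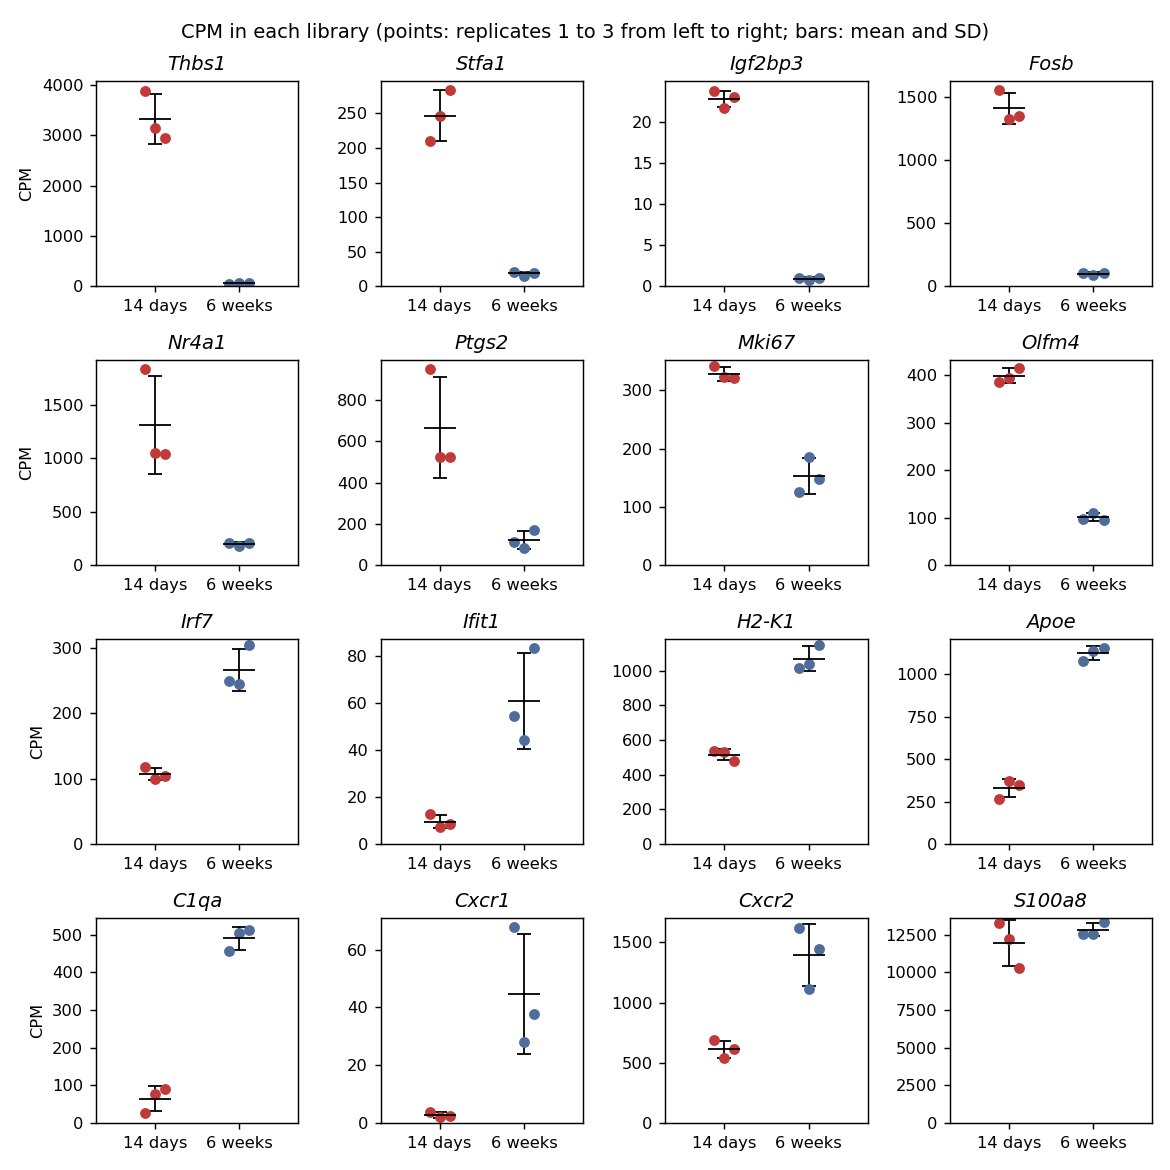
CPM of 16 genes in each library, with 14 days on the left and 6 weeks on the right of each panel; points are replicates 1 to 3 from left to right, the horizontal bars the mean and the error bars the SD of 3 libraries. The 2 ages are apart in 15 panels, from Thbs1 at a mean of 3329 against 57.7 CPM to Cxcr1 at 2.73 against 44.5 CPM, while S100a8 overlaps.

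Genes of dividing cells were higher at 14 days. Of 32 tested mitosis genes 26 were higher and 0 lower, with all 32 estimates above 0 and a median of 0.83. Mki67, which encodes the proliferation marker Ki-67, was at 341, 322 and 321 CPM at 14 days, against 125, 185 and 148 CPM at 6 weeks (log2 fold change 1.10, SE 0.16, adjusted p = 0.000683). The kinetochore motor gene Cenpe was at 38.3, 31.8 and 31.8 CPM at 14 days, against 12.042, 16.9 and 15.8 CPM at 6 weeks (log2 fold change 1.19, SE 0.19, adjusted p = 0.00133). Cenpf, another kinetochore gene, was at 36.4, 36.7 and 35.3 CPM at 14 days, against 13.4, 19.6 and 17.1 CPM at 6 weeks (log2 fold change 1.11, SE 0.20, adjusted p = 0.00283). In each of the 3 genes no library of one age reached those of the other, and 6-week replicate 2 was the highest of its age. The count of mitosis genes fell to 13, 13 and 14 without 14-day replicates 1, 2 and 3, to 7 and 9 without 6-week replicates 1 and 3, and to 17 with a replicate block, while the direction held in each.

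Of 34 DNA replication genes 10 were higher and 0 lower, with a median of 0.58. Tk1, thymidine kinase, was at 25.019, 33.3 and 32.8 CPM at 14 days, against 14.4, 17.3 and 15.8 CPM at 6 weeks (log2 fold change 0.94, SE 0.19, adjusted p = 0.00448). Ccne2, a cyclin of the entry into DNA synthesis, was at 5.23, 6.72 and 6.39 CPM at 14 days, against 3.09, 2.99 and 2.57 CPM at 6 weeks (log2 fold change 1.08, SE 0.16, adjusted p = 0.000706). Cdc45, part of the replicative helicase, was at 25.8, 22.9 and 23.7 CPM at 14 days, against 12.3, 17.4 and 14.3 CPM at 6 weeks (log2 fold change 0.72, SE 0.13, adjusted p = 0.00252). The libraries of both ages did not overlap in any of these. This count ranged from 5 to 28: it was 5 when 14-day replicate 2 or 3, 6-week replicate 1 or 3, 2-day replicate 3 or 7-day replicate 1 or 3 was left out, and under the replicate block. It was 6 without 7-day replicate 2 and with scaling by library totals, 25 in the fit of the 6 libraries alone, 24 in that fit with a replicate block and 28 without 2-day replicate 2.

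The promoters of the mitosis genes share a short element, the cell cycle homology region (CHR), which is known to bind the repressor complex that silences them in resting cells. Its letters TTTGAA, read on both strands, were present in 19 of 27 mitosis promoters (70.4%), against 14.9% of the 10953 tested genes with a RefSeq promoter, 19.1% of the genes higher and 14.9% of those lower at 14 days. The promoters of Mki67 (chr7:135716330-135716629, minus strand) and Cenpf (chr1:189688037-189688336, minus strand) are shown as examples that hold the element, with the CHR letters in capitals. A match is a description of letters and not a bound site.
Mki67: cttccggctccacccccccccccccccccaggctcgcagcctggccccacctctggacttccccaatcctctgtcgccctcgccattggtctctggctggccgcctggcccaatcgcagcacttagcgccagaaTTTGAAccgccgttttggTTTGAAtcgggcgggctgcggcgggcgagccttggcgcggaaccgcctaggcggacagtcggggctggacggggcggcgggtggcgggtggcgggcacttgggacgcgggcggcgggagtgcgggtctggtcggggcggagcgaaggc
Cenpf: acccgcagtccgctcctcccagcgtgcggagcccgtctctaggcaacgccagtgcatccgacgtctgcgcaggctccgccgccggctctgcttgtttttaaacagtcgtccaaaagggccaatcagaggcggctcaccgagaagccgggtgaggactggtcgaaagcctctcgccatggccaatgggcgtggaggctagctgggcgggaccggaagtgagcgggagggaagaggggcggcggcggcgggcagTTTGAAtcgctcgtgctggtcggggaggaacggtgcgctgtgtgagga

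The element of the replication genes is that of the E2F factors. With the letters TTTNGCGC or TTTCCNGC on either strand it was present in 13 of 28 promoters of DNA replication genes and in 11.5% of all, with 11.6% in genes higher and 10.7% in genes lower at 14 days.

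Of 21 regulators of granulocyte progenitors 5 were higher and 0 lower, with a median of 0.40, and 3 were higher without 14-day replicate 2 or 6-week replicate 3. Egr1, given below with the immediate early genes, was 1 of those higher. Klf4, a zinc finger factor of the monocyte line, was at 149.9, 86.6 and 80.028 CPM at 14 days, against 34.984, 36.1 and 31.3 CPM at 6 weeks (log2 fold change 1.63, SE 0.26, adjusted p = 0.00127). Meis1, a factor of stem and progenitor cells, was at 2.51, 5.69 and 3.89 CPM at 14 days, against 1.73, 1.35 and 1.28 CPM at 6 weeks (log2 fold change 1.47, SE 0.27, adjusted p = 0.00277). Myb, needed for progenitor growth, had a log2 fold change of 0.65. 

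Immediate early genes, which are switched on within minutes of a stimulus and also by handling of the tissue, were higher as a group. Of 24 tested 12 were higher and 0 lower, with a median of 0.92, and their summed level was 28694, 22716 and 26549 CPM at 14 days, against 19142, 14402 and 19196 CPM at 6 weeks. Fosb, a subunit of the transcription factor AP-1, was at 1555, 1330.2 and 1351 CPM at 14 days, against 108, 89.020 and 109 CPM at 6 weeks (log2 fold change 3.79, SE 0.23, adjusted p = 2.13e-06). Nr4a1, an orphan nuclear receptor, was at 1838, 1049 and 1041 CPM at 14 days, against 207, 184 and 208 CPM at 6 weeks (log2 fold change 2.71, SE 0.22, adjusted p = 1.73e-05). Both were far above the 6-week range in all 3 libraries of 14 days. Egr1, a zinc finger factor, was at 1878, 1796 and 2386 CPM at 14 days, against 687, 821 and 1303 CPM at 6 weeks (log2 fold change 1.11, SE 0.22, adjusted p = 0.00505), and its relative Egr2 at 55.8, 39.007 and 33.7 CPM at 14 days, against 8.53, 8.72 and 8.97 CPM at 6 weeks (log2 fold change 2.29, SE 0.18, adjusted p = 1.13e-05). The kinase gene Sik1 was at 874, 819 and 758 CPM at 14 days, against 255, 194 and 211 CPM at 6 weeks (log2 fold change 1.89, SE 0.14, adjusted p = 6.36e-06), with its libraries of each age close together. Fos itself was at 2726, 2881 and 3319 CPM at 14 days, against 2007, 1527 and 2254 CPM at 6 weeks and missed the threshold (log2 fold change 0.62, SE 0.23, adjusted p = 0.079), though it passed under 5 of 21 settings, whose adjusted p ranged from 0.00696 to 0.236.

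For several members 14-day replicate 1 set the size. Fosl1, another AP-1 subunit, was at 72.4, 14.9 and 13.3 CPM at 14 days, against 0.446, 0.530 and 0.410 CPM at 6 weeks (log2 fold change 6.17, SE 0.79, adjusted p = 0.000332), and its log2 fold change was 4.92 without that library. The stress factor gene Atf3 was at 483, 161 and 159 CPM at 14 days, against 38.2, 30.5 and 43.7 CPM at 6 weeks (log2 fold change 2.83, SE 0.37, adjusted p = 0.000374), with 2.09 once that library was left out. Trib1, a pseudokinase gene, was at 1807, 733 and 732 CPM at 14 days, against 447, 295 and 357 CPM at 6 weeks (log2 fold change 1.57, SE 0.30, adjusted p = 0.00387). The other 2 libraries of 14 days were still above all 6-week libraries in each of these 3 genes. For Fosl1 and Trib1 that lack of overlap was set by the rule that picked them. The time between death and RNA extraction is not given in the labels, and the part of handling in these levels was not tested.

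Genes of the NF-kB pathway, the main switch of inflammatory transcription, were divided. Of 36 tested 12 were higher and 7 lower, with a median of 0.14, and the summed level was 9779, 5395 and 5556 CPM at 14 days, against 5413, 3939 and 5026 CPM at 6 weeks, again highest in 14-day replicate 1. The higher members were Ccl3, Ccl4, Cxcl2, Cxcl3, Tnf, Il6, Ptgs2, Rel, Nfkbia, Nfkbid, Nfkbiz and Tnfaip3, and the lower members Nfkb2, Relb, Bcl3, Nfkbie, Ier3, Cd83 and Icam1. Nfkbiz, an inducible nuclear regulator, was at 951, 482 and 473 CPM at 14 days, against 196, 150.3 and 173 CPM at 6 weeks (log2 fold change 1.87, SE 0.24, adjusted p = 0.000366), and Tnfaip3, a ubiquitin-editing brake, had a log2 fold change of 1.97. On the lower side Nfkb2, the subunit of the alternative arm, was at 86.8, 87.9 and 93.6 CPM at 14 days, against 154, 139 and 139 CPM at 6 weeks (log2 fold change -0.69, SE 0.10, adjusted p = 0.000637), with Relb, its partner, at a log2 fold change of -0.76. Icam1, an adhesion protein that macrophages and endothelium also make, was at 30.2, 38.1 and 42.9 CPM at 14 days, against 75.3, 72.7 and 75.4 CPM at 6 weeks (log2 fold change -1.01, SE 0.18, adjusted p = 0.00277). Nfkb2 and Icam1 did not overlap between the ages.

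Cytokine genes of this pathway differed in how firmly they moved. Tnf was at 91.5, 43.9 and 47.4 CPM at 14 days, against 26.036, 32.9 and 30.2 CPM at 6 weeks (log2 fold change 1.04, SE 0.25, adjusted p = 0.0144), and missed the threshold without 6-week replicate 1 (adjusted p = 0.064, in a range of 0.00167 to 0.064 over 21 settings). Nfkbia, the classical inhibitor, was at 588, 336 and 387 CPM at 14 days, against 320.4, 229.8 and 263 CPM at 6 weeks (log2 fold change 0.69, SE 0.20, adjusted p = 0.0318). Its adjusted p was 0.118 when 14-day replicate 1 was left out. It was 0.113 and 0.103 when 6-week replicates 2 and 3 were left out in turn, in a range of 0.00476 to 0.118. Il1b, interleukin-1 beta, was at 2733, 1502 and 1599 CPM at 14 days, against 1841, 1169 and 1872 CPM at 6 weeks, with overlapping ranges (log2 fold change 0.26, SE 0.31, adjusted p = 0.607). Only 14-day replicate 1 lay above all 6-week libraries for Il1b.

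Chemokine genes, which call other cells in, moved both ways. Of 19 tested ligands 5 were higher (Ccl3, Ccl4, Ccl2, Cxcl3 and Cxcl2) and 4 lower (Cxcl9, Cxcl10, Ccl5 and Ccl24). Ccl3, a ligand for monocytes and T cells, was at 283, 52.5 and 55.987 CPM at 14 days, against 10.5, 9.03 and 10.9 CPM at 6 weeks (log2 fold change 3.68, SE 0.54, adjusted p = 0.000778), and its neighbour Ccl4 at 75.4, 15.5 and 13.5 CPM at 14 days, against 5.41, 4.66 and 4.24 CPM at 6 weeks (log2 fold change 2.87, SE 0.54, adjusted p = 0.00337). In both, 14-day replicate 1 was several times its partners, and without it the log2 fold changes were 2.42 and 1.60. The neutrophil attractants Cxcl3 and Cxcl2 had log2 fold changes of 1.77 and 1.38. Among the lower ligands, Cxcl9 (-1.67) and Cxcl10 (-0.99) are known as interferon-induced attractants of T cells, Ccl5 (-1.31) as a T and NK cell product, and Ccl24 (-1.65) as an attractant of eosinophils.

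Products by which myeloid cells are known to suppress did not move together. Of 29 tested suppressive mediators 8 were higher and 6 lower, with a median of -0.11. Beside Thbs1 and Cd36, the prostaglandin pair rose. Ptgs2, cyclooxygenase-2, was at 949.7, 524 and 524 CPM at 14 days, against 114, 84.5 and 171 CPM at 6 weeks (log2 fold change 2.43, SE 0.32, adjusted p = 0.000348), with 14-day replicate 1 the highest and its partners still above every 6-week library. Ptges, the terminal prostaglandin E2 synthase, was at 25.5, 27.2 and 28.5 CPM at 14 days, against 7.81, 12.8 and 11.045 CPM at 6 weeks, without overlap (log2 fold change 1.36, SE 0.17, adjusted p = 0.000306). Olr1, the receptor LOX-1 that marks suppressive neutrophils in human blood, was at 31.8, 27.030 and 29.3 CPM at 14 days, against 11.6, 17.989 and 15.6 CPM at 6 weeks (log2 fold change 0.96, SE 0.15, adjusted p = 0.00104). The others on this side were Nt5e (1.07), the ectoenzyme that makes adenosine, Havcr2 (0.73) and Vegfa, at 103, 57.1 and 62.1 CPM at 14 days, against 39.5, 42.3 and 38.5 CPM at 6 weeks (log2 fold change 0.89, SE 0.19, adjusted p = 0.00609).

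On the lower side, Cd274, which encodes the checkpoint ligand PD-L1, was at 49.3, 38.953 and 34.7 CPM at 14 days, against 54.9, 52.7 and 64.7 CPM at 6 weeks (log2 fold change -0.49, SE 0.15, adjusted p = 0.0381), without overlap but past the threshold under only 10 of 21 settings, with adjusted p from 0.0122 to 0.157. Tgfb1, transforming growth factor beta, was at 227, 225 and 258 CPM at 14 days, against 304, 347 and 355 CPM at 6 weeks (log2 fold change -0.50, SE 0.15, adjusted p = 0.0361), past it under 13 of 21, with adjusted p from 0.00449 to 0.126. The gene of inducible nitric oxide synthase, Nos2, was at 0.35032, 0.109 and 0.297 CPM at 14 days, against 2.93, 1.06 and 0.574 CPM at 6 weeks (log2 fold change -2.58, SE 0.66, adjusted p = 0.0173), and its call ended when 14-day replicate 2 was left out (adjusted p = 0.0689) and when 6-week replicate 1 was (0.0871), where the log2 fold change was -1.69, in a range of 0.000536 to 0.0871. Arg1, arginase 1, was at 0.380, 0.163 and 0.108 CPM at 14 days, against 0.112, 0.424 and 0.109 CPM at 6 weeks, near the limit of detection at both ages (log2 fold change -0.01, SE 0.61, adjusted p = 0.996). The other 3 lower members were Hmox1 (-1.06), Entpd1 (-0.83) and Il4i1 (-0.81), of which Hmox1, haem oxygenase, is a red pulp macrophage gene too. The count of lower mediators was 2 and 3 without 14-day replicates 2 and 3, 1 and 3 without 6-week replicates 1 and 3, and 3 with a replicate block. Slc27a2, a fatty acid transporter of suppressive neutrophils, was at 3.12, 4.11 and 3.67 CPM at 14 days, against 1.76, 1.56 and 1.89 CPM at 6 weeks and not called (log2 fold change 1.07, SE 0.43, adjusted p = 0.107), but it passed under 4 of 21 settings, whose adjusted p ranged from 0.00726 to 0.228. Of 9 genes of the NADPH oxidase, which makes reactive oxygen, 1 was lower (11.1%, near the 9.26% of all tested genes), Cybc1 (-0.80), in 11 of 21 settings, and Cybb, its catalytic subunit, was at 2127, 1815 and 1807 CPM at 14 days, against 1309, 1948 and 1589 CPM at 6 weeks (log2 fold change 0.25, SE 0.16, adjusted p = 0.311). That list had 3 lower members without 2-day replicate 2.

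Transcripts of macrophages were several times lower at 14 days. Of 21 tested markers of red pulp and other macrophages 20 were lower and 0 higher, with a median of -2.03, and their summed level was 1924, 2629 and 2774 CPM at 14 days, against 8188, 8150.1 and 8649.6 CPM at 6 weeks. The lowest 6-week library was thus above all 14-day libraries, and 14-day replicate 1 was the lowest of all. Fewer cells of a type and less RNA per cell cannot be told apart in bulk samples. Trf, transferrin, was at 146, 186 and 209 CPM at 14 days, against 765, 712 and 745 CPM at 6 weeks (log2 fold change -2.04, SE 0.14, adjusted p = 4.63e-06). Apoe, apolipoprotein E, was at 268, 370.1 and 349 CPM at 14 days, against 1079.6, 1137 and 1157 CPM at 6 weeks (log2 fold change -1.77, SE 0.15, adjusted p = 2.21e-05). C1qa, a chain of complement C1q, was at 26.2, 76.9 and 91.1 CPM at 14 days, against 455, 504 and 511 CPM at 6 weeks (log2 fold change -2.92, SE 0.33, adjusted p = 0.000163), and its 2 partner chains C1qb and C1qc had log2 fold changes of -2.65 and -2.71. Spic, the factor that makes red pulp macrophages, had -2.16, and Csf1r, the receptor for their growth factor, was at 481, 450.1 and 473 CPM at 14 days, against 1131, 1145 and 1253 CPM at 6 weeks (log2 fold change -1.33, SE 0.24, adjusted p = 0.00277). No defining marker of this list was at 0 at either age.

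Other genes among the falls are known to be made by macrophages too. C6, a component of the complement pore and itself a member of the macrophage list, was at 2.66, 9.31 and 10.5 CPM at 14 days, against 70.2, 72.8 and 70.5 CPM at 6 weeks (log2 fold change -3.24, SE 0.41, adjusted p = 0.000285). Ctsb, a lysosomal cysteine protease, was at 463, 692 and 691 CPM at 14 days, against 1539, 1564 and 1711 CPM at 6 weeks (log2 fold change -1.38, SE 0.15, adjusted p = 0.000138). Ctsd, a lysosomal aspartic protease, was at 1157, 809.8 and 890.2 CPM at 14 days, against 2565, 1697 and 2172 CPM at 6 weeks (log2 fold change -1.17, SE 0.23, adjusted p = 0.00381), and unlike the macrophage sum it was highest in replicate 1 among the 14-day libraries. Fcgr1, the high-affinity Fc receptor for immunoglobulin G, was at 3.44, 6.89 and 7.18 CPM at 14 days, against 24.5, 27.6 and 29.3 CPM at 6 weeks (log2 fold change -2.21, SE 0.23, adjusted p = 8.23e-05). Fcgrt, the neonatal Fc receptor, was at 24.4, 36.1 and 35.9 CPM at 14 days, against 78.8, 77.7 and 76.962 CPM at 6 weeks (log2 fold change -1.28, SE 0.14, adjusted p = 0.000146). In each, all 14-day libraries were below all 6-week libraries, which for C6, Ctsb and Ctsd was set by the rule that picked them. Fcgr1 and Fcgrt were 2 of the 6 lower genes among 20 tested Fc receptor, integrin and selectin genes, of which 0 were higher. Abca1, the cholesterol exporter, was at 24.7, 33.5 and 33.9 CPM at 14 days, against 121, 86.5 and 89.4 CPM at 6 weeks (log2 fold change -1.69, SE 0.19, adjusted p = 0.000137). The part of macrophage transcripts in these differences was not tested.

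Lymphoid transcripts were lower in part. Of 26 T and NK cell markers 8 were lower and 0 higher, with a median of -0.61 and a summed level of 93.8, 213 and 198 CPM at 14 days, against 291, 347 and 281 CPM at 6 weeks. Those lower were Cd4 and genes of cytotoxic cells. Prf1, perforin, was at 2.31, 3.16 and 2.40 CPM at 14 days, against 13.6, 17.8 and 12.5 CPM at 6 weeks (log2 fold change -2.48, SE 0.28, adjusted p = 0.000144). Gzma, granzyme A, was at 10.2, 17.9 and 11.4 CPM at 14 days, against 44.3, 53.7 and 43.7 CPM at 6 weeks (log2 fold change -1.84, SE 0.24, adjusted p = 0.000394). Neither overlapped. Of 11 plasma cell genes 5 were lower and 0 higher, but 3 without 6-week replicate 1, with library totals alone, and in the 6-library fit with a replicate block. Jchain, which joins secreted immunoglobulins, was at 9.81, 20.4 and 19.2 CPM at 14 days, against 160.1, 71.6 and 50.4 CPM at 6 weeks (log2 fold change -2.51, SE 0.44, adjusted p = 0.00233), with 6-week replicate 1 far above its partners and a log2 fold change of -1.89 without it. Of 17 genes of B cells and MHC class II 1 was lower, Cd79b (-0.88), a call that ended under 7 of 21 settings, with adjusted p from 0.00761 to 0.104, while 3 were lower without 2-day replicate 2.

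Eosinophil granule genes went the other way. Of 11 tested eosinophil genes 6 were higher and 1 lower, with a median of 2.24. Prg2, which encodes the major basic protein, was at 43.3, 59.6 and 61.2 CPM at 14 days, against 2.59, 2.54 and 0.492 CPM at 6 weeks (log2 fold change 4.86, SE 0.63, adjusted p = 0.000348), and Epx, eosinophil peroxidase, had a log2 fold change of 5.68. Ear1, a ribonuclease of eosinophils, was at 9.87, 13.6 and 13.7 CPM at 14 days, against 0.0836, 0.185 and 0.0273 CPM at 6 weeks (log2 fold change 6.91, SE 0.66, adjusted p = 4.67e-05), with 7.73 without 6-week replicate 2, and Ear6 at 6.10, 9.69 and 8.74 CPM at 14 days, against 0.112, 0.106 and 0.219 CPM at 6 weeks (log2 fold change 5.78, SE 0.38, adjusted p = 3.05e-06). All 14-day libraries were far above the 6-week libraries in these, though Ear genes are near-identical copies among which reads may be shared. The 6 higher genes also include the transcription factor gene Gata1, which overlapped between the ages and whose call ended under 5 of 21 settings. The lower one was Ccr3, the eotaxin receptor of mature eosinophils, at 9.84, 31.4 and 28.1 CPM at 14 days, against 94.4, 89.1 and 95.8 CPM at 6 weeks (log2 fold change -2.01, SE 0.31, adjusted p = 0.00105). The summed level of the whole list was 223, 312 and 268 CPM at 14 days, against 194, 189.7 and 218 CPM at 6 weeks.

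**Figure D3:**
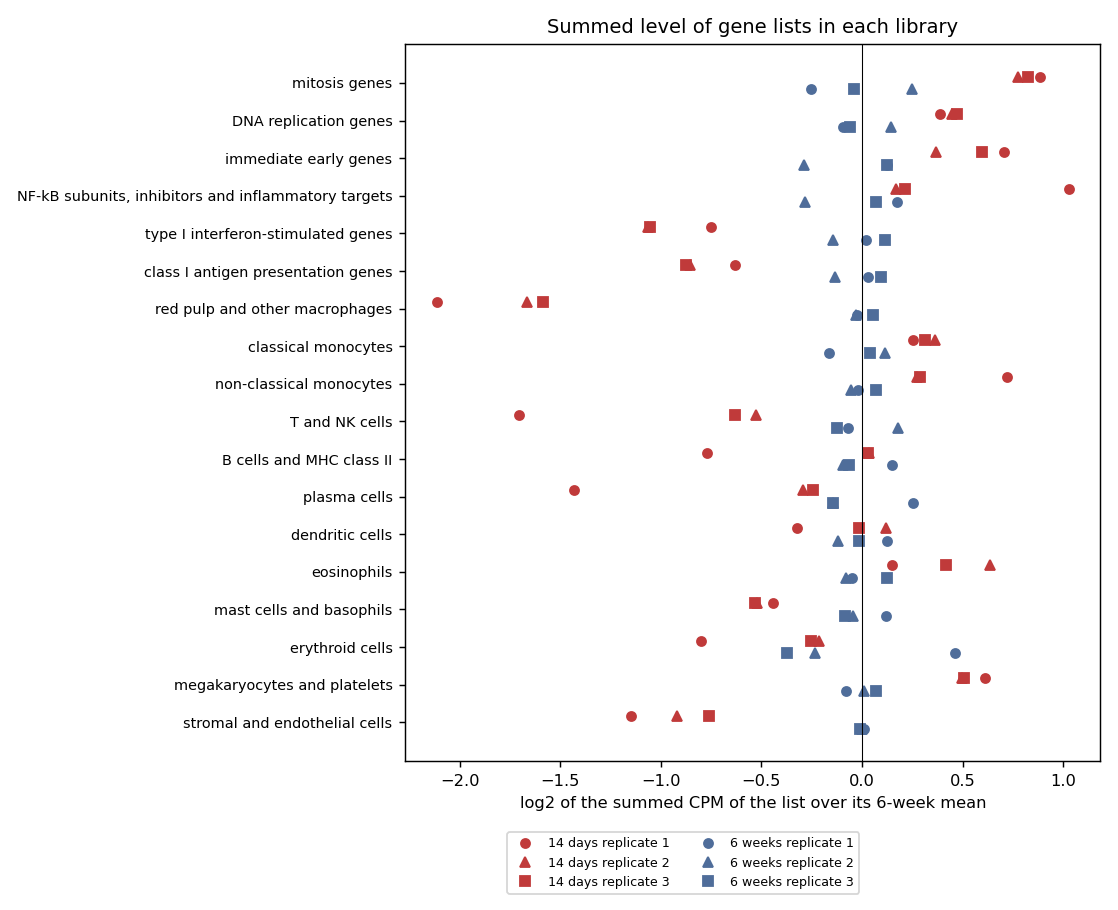
Summed CPM of 18 gene lists in each library, as log2 of its ratio to the 6-week mean (horizontal), with 14 days in red above 6 weeks in blue and a symbol for each replicate. The macrophage sums of 14 days, 1924 to 2774 CPM, lie left of all 6-week sums, 8150.1 to 8649.6 CPM, the mitosis sums lie right of them, and 14-day replicate 1 stands apart in the lymphoid and NF-kB lists.

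Markers of other cell types moved both ways. Of 14 classical monocyte genes 5 were higher (35.7%, against 9.68% of all tested genes) and 1 lower (7.14%, against 9.26%), and 3 were higher without 14-day replicate 2 or 3 or 6-week replicate 2 or 3. Those higher included Chil3 and Klf4, counted above with the secondary granule genes and the progenitor regulators. Chil3 averaged 5479 CPM of a list sum of 7793 CPM at 14 days, and 3088 of 6281 CPM at 6 weeks. F13a1, the coagulation factor XIII subunit of monocytes and platelets, was at 10.2, 6.70 and 7.85 CPM at 14 days, against 1.53, 2.83 and 1.86 CPM at 6 weeks (log2 fold change 1.98, SE 0.25, adjusted p = 0.000277), and the lower one was Csf1r. Of 13 non-classical monocyte genes 2 were higher (15.4%) and 3 lower (23.1%). Nr4a1, given above as an immediate early gene, was 1 of those higher. It averaged 1309 CPM of a list sum of 3391 CPM at 14 days, and 199.6 of 2495 CPM at 6 weeks. Among the lower ones Cd300e was at 12.7, 12.4 and 11.3 CPM at 14 days, against 33.4, 39.1 and 37.9 CPM at 6 weeks (log2 fold change -1.598, SE 0.17, adjusted p = 0.000119). Of 25 erythroid genes 3 were higher and 1 lower, but the median was -0.41, with 18 estimates below 0 and 7 above. Gata1, 1 of those higher (log2 fold change 2.40), overlapped between the ages, and its call ended under 5 of 21 settings. Tfrc, the transferrin receptor, which dividing cells also carry, was at 40.7, 39.960 and 35.967 CPM at 14 days, against 22.4, 19.6 and 17.7 CPM at 6 weeks (log2 fold change 0.97, SE 0.18, adjusted p = 0.00281). Epor, the erythropoietin receptor, was at 0.963, 1.82 and 2.64 CPM at 14 days, against 7.11, 6.76 and 6.18 CPM at 6 weeks (log2 fold change -1.88, SE 0.37, adjusted p = 0.0046). The count of higher erythroid genes was 1 when 14-day replicate 2 or either of 6-week replicates 2 and 3 was left out. Of 12 megakaryocyte and platelet genes, cells that also make Thbs1, 3 were higher and 0 lower, and 1 without 14-day replicate 2 or 6-week replicate 2. Their summed level was 131, 121 and 122 CPM at 14 days, against 81.1, 86.2 and 89.8 CPM at 6 weeks, and its part in the Thbs1 difference was not tested. Vwf, von Willebrand factor, was at 11.006, 12.004 and 11.4 CPM at 14 days, against 7.42, 6.70 and 6.45 CPM at 6 weeks (log2 fold change 0.74, SE 0.14, adjusted p = 0.00361).

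For stromal and endothelial cells 3 of 13 genes were higher (23.1%), all collagen or matrix genes, and 2 lower (15.4%). The higher calls ended without 14-day replicate 1 or 6-week replicate 1 or 3 and numbered 1 without 14-day replicate 3 or 6-week replicate 2, and 5 without 2-day replicate 2. Stab2, a scavenger receptor of sinus endothelium, was at 4.41, 15.5 and 17.970 CPM at 14 days, against 54.6, 51.7 and 56.047 CPM at 6 weeks (log2 fold change -2.10, SE 0.41, adjusted p = 0.0039). Of 16 dendritic cell genes 1 was higher and 2 were lower, with 3 higher without 2-day replicate 2. Of 16 mast cell and basophil genes 1 was higher and 2 lower, with 3 higher without 14-day replicate 1 and 4 without 6-week replicate 2.

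Interferon-stimulated genes were lower at 14 days as a body. Of 64 tested type I interferon-stimulated genes, which cells switch on to resist viruses, 49 were lower and 0 higher, with a median of -1.15 and 62 estimates below 0. Their summed level was 6414, 5166 and 5207 CPM at 14 days, against 10965, 9767 and 11691 CPM at 6 weeks, so that the ages did not overlap. Irf7, the factor that amplifies the response, was at 117, 99.4 and 103 CPM at 14 days, against 249.8, 245 and 303 CPM at 6 weeks (log2 fold change -1.32, SE 0.16, adjusted p = 0.000235). Isg15, a ubiquitin-like modifier, was at 21.019, 13.7 and 12.5 CPM at 14 days, against 54.5, 45.6 and 74.6 CPM at 6 weeks (log2 fold change -1.89, SE 0.28, adjusted p = 0.000728). Ifit1, a sensor of foreign RNA caps, was at 12.6, 7.40 and 8.55 CPM at 14 days, against 54.4, 44.4 and 83.4 CPM at 6 weeks (log2 fold change -2.68, SE 0.31, adjusted p = 0.000183). Ifi27l2a was at 32.6, 30.3 and 24.9 CPM at 14 days, against 111, 87.7 and 139.7 CPM at 6 weeks (log2 fold change -1.95, SE 0.20, adjusted p = 8.23e-05). In all 4 genes the highest 14-day library was below the lowest 6-week library.

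The synthetases that make the signal for RNA decay were lower too. Oas1a was at 33.4, 20.4 and 20.3 CPM at 14 days, against 107, 110.5 and 120.1 CPM at 6 weeks (log2 fold change -2.19, SE 0.20, adjusted p = 3.82e-05). Oas1g, a neighbour of it on chromosome 5, was at 3.77, 4.25 and 1.78 CPM at 14 days, against 40.8, 48.8 and 46.8 CPM at 6 weeks (log2 fold change -3.80, SE 0.26, adjusted p = 4.63e-06). Ifit3b, a neighbour of Ifit1 on chromosome 19, was at 8.44, 4.33 and 5.72 CPM at 14 days, against 36.9, 30.1 and 62.3 CPM at 6 weeks (log2 fold change -2.81, SE 0.43, adjusted p = 0.000975). Reads may be shared between the copies of these families. Macrophages also express such genes, and their markers were lower at 14 days too, with the sums given above. Within that age, replicate 1 had the lowest macrophage sum (1924 CPM) and the highest interferon sum (6414 CPM). The part of macrophage transcripts in the interferon-stimulated genes was not tested.

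The promoters of these genes carry the interferon-stimulated response element, the site read by the STAT and IRF factors. With the letters GAAANNGAAA on either strand it was present in 29 of 51 promoters of the list (56.9%), against 3.86% of all tested genes. It was in 8.13% of genes lower and 3.26% of genes higher at 14 days, and in 6.11% of lower genes outside the list. Among 18 class I promoters 5 held it. The promoters of Ifit1 (chr19:34640639-34640938, plus strand), Isg15 (chr4:156200769-156201068, minus) and Oas1a (chr5:120907476-120907775, minus) are shown with the element in capitals, overlapping matches run together, as examples that hold it and whose levels are given above. The Ifit1 promoter holds 2 matches, that of Isg15 3 and that of Oas1a 2.
Ifit1: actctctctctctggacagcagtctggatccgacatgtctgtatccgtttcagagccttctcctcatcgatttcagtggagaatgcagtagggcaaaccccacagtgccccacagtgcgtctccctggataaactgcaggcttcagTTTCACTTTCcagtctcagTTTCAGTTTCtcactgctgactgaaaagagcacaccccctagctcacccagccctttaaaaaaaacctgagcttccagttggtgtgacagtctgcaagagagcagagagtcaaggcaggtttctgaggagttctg
Isg15: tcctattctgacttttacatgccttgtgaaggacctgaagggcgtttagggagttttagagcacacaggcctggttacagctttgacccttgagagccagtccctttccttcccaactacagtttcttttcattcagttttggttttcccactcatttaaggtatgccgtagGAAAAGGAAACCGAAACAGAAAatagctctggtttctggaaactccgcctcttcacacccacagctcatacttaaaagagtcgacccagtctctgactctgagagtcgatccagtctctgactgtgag
Oas1a: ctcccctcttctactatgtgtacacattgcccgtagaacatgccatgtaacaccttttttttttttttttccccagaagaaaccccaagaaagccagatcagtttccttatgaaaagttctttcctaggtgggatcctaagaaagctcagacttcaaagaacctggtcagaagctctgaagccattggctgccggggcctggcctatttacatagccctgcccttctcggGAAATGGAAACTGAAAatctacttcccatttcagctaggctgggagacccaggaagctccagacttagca

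In the list of interferon receptor and proximal signalling genes, which also holds the feedback gene Usp18, 10 of 20 were lower and 0 higher. The median was -0.38, and the lower count was 6 without 14-day replicate 3 or 5 without 6-week replicate 3. Stat2, which carries the type I signal to the nucleus, was at 43.9, 44.969 and 46.2 CPM at 14 days, against 70.6, 78.979 and 83.3 CPM at 6 weeks (log2 fold change -0.79, SE 0.10, adjusted p = 0.000348). Ifngr2, a chain of the interferon gamma receptor, was at 108, 97.1 and 100.2 CPM at 14 days, against 209.5, 187 and 213 CPM at 6 weeks (log2 fold change -0.997, SE 0.19, adjusted p = 0.0036). Ifnar1, a chain of the type I receptor, was at 103, 91.1 and 97.7 CPM at 14 days, against 138, 116 and 133 CPM at 6 weeks (log2 fold change -0.41, SE 0.12, adjusted p = 0.0339), past the threshold under 16 of 21 settings, with adjusted p from 0.00592 to 0.125. Usp18, which trims Isg15 from proteins and damps the receptor, was at 13.7, 10.8 and 10.1 CPM at 14 days, against 33.8, 31.4 and 41.7 CPM at 6 weeks (log2 fold change -1.63, SE 0.23, adjusted p = 0.000675). Socs3, a feedback inhibitor of cytokine receptors, was at 416, 297 and 334 CPM at 14 days, against 802, 427 and 613 CPM at 6 weeks (log2 fold change -0.81, SE 0.21, adjusted p = 0.0188), past it under 17 of 21 settings, with adjusted p from 0.00194 to 0.0897.

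Class I antigen presentation genes, which interferon also raises, were lower. Of 20 tested 15 were lower and 0 higher, with a median of -0.64. H2-K1 was at 537, 531 and 482 CPM at 14 days, against 1016, 1039.7 and 1151 CPM at 6 weeks (log2 fold change -1.05, SE 0.13, adjusted p = 0.0003). H2-D1 was at 2698, 1976 and 1973 CPM at 14 days, against 4449, 3516 and 4483 CPM at 6 weeks (log2 fold change -0.91, SE 0.19, adjusted p = 0.00635). Both encode classical class I heavy chains, and neither overlapped, though reads of class I genes can be shared between copies. Tap1, a subunit of the peptide transporter, was at 154, 139 and 138 CPM at 14 days, against 236, 232 and 266 CPM at 6 weeks (log2 fold change -0.77, SE 0.11, adjusted p = 0.000495), and B2m, the shared light chain, had a log2 fold change of -0.59. The immunoproteasome genes Psmb8, Psmb9 and Psmb10 had -0.67, -0.62 and -0.51.

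**Figure D4:**
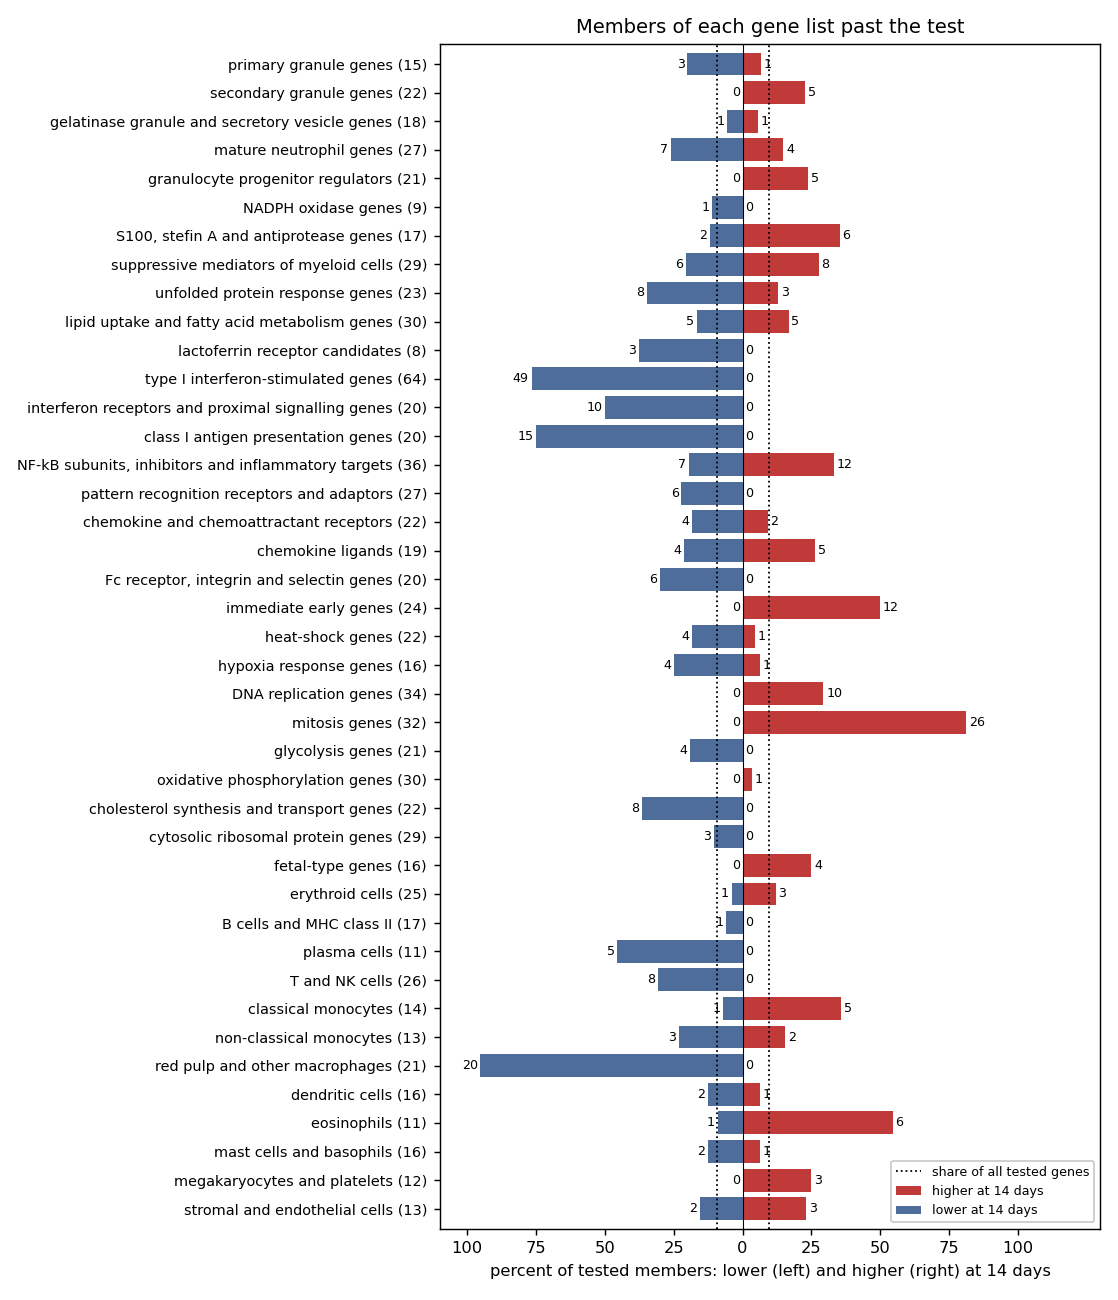
For each of 41 gene lists (tested members in brackets) the bar to the right is the percent of tested members higher and the bar to the left the percent lower at 14 days, with the number of genes at its end; dotted lines mark the shares of all tested genes, 9.68% higher and 9.26% lower. Macrophage (20 of 21), interferon (49 of 64) and class I (15 of 20) lists reach far left, and the mitosis list (26 of 32) far right.

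Of 22 tested chemokine and chemoattractant receptors 2 were higher and 4 lower, 9.09% and 18.2%. Cxcr1 and Cxcr2, both receptors for neutrophil-attracting chemokines, were among the lower. Cxcr1 (chromosome 1, 74191785 to 74194631) was at 3.77, 2.01 and 2.40 CPM at 14 days, against 67.9, 27.978 and 37.8 CPM at 6 weeks (log2 fold change -4.03, SE 0.36, adjusted p = 3.28e-05). Cxcr2, its neighbour and the main receptor of that kind in the mouse (chromosome 1, 74153989 to 74161246), was at 685, 542 and 611 CPM at 14 days, against 1619, 1112 and 1449 CPM at 6 weeks (log2 fold change -1.18, SE 0.29, adjusted p = 0.0153). All 14-day libraries were below all 6-week libraries in both. The Cxcr2 call ended when 1 of 3 libraries was left out: 14-day replicate 2 (adjusted p = 0.0522), 6-week replicate 1 (0.0603) and 6-week replicate 3 (0.0501), in a range of 0.000491 to 0.0603. Cxcr4, which holds neutrophils in the marrow, was at 918, 733 and 808 CPM at 14 days, against 589.6, 581 and 760.5 CPM at 6 weeks and not called (log2 fold change 0.35, SE 0.24, adjusted p = 0.344). Ccrl2, which presents chemerin, was higher at 513, 153 and 169 CPM at 14 days, against 46.9, 41.1 and 58.7 CPM at 6 weeks (log2 fold change 2.51, SE 0.39, adjusted p = 0.00104), with 1.72 without 14-day replicate 1. Up to 8 receptors of this list were lower under other settings, as without 2-day replicate 2 or in the fit of the 6 libraries, and 7 without 2-day replicate 1.

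Among 27 genes of mature neutrophils 4 were higher and 7 lower, with a median of -0.36. Trem1, a receptor that amplifies inflammation, was at 1212, 779 and 741 CPM at 14 days, against 383, 256 and 302 CPM at 6 weeks (log2 fold change 1.54, SE 0.21, adjusted p = 0.000481). Ifitm1, an interferon-induced membrane protein, was at 228, 163 and 161 CPM at 14 days, against 1116, 666 and 618 CPM at 6 weeks (log2 fold change -2.12, SE 0.34, adjusted p = 0.00116). Neither overlapped. The lower count was 3 and 4 without 14-day replicates 2 and 3, 2 and 3 without 6-week replicates 1 and 3, 11 without 2-day replicate 2 and 13 in the 6-library fit with a replicate block. Lrg1, a granule glycoprotein, was at 765, 566 and 615 CPM at 14 days, against 1809.8, 1432 and 1349.9 CPM at 6 weeks (log2 fold change -1.24, SE 0.22, adjusted p = 0.0022).

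Sensors of microbes were lower in part. Of 27 tested pattern recognition receptors and adaptors 6 were lower and 0 higher, with a median of -0.45. The count was 3 without 14-day replicate 2 or 6-week replicates 1 or 3, 10 in the fit of the 6 libraries, 12 in that fit with a replicate block, and 11 without 2-day replicate 2. Myd88, the adaptor of most Toll-like receptors, was at 262, 189 and 209 CPM at 14 days, against 470.3, 338 and 429 CPM at 6 weeks (log2 fold change -0.91, SE 0.17, adjusted p = 0.00334). Tlr1 was at 11.6, 20.7 and 18.7 CPM at 14 days, against 46.971, 32.5 and 30.976 CPM at 6 weeks (log2 fold change -1.11, SE 0.21, adjusted p = 0.0035). Mefv, which encodes the inflammasome sensor pyrin, was at 59.4, 37.3 and 34.7 CPM at 14 days, against 124, 101 and 113 CPM at 6 weeks (log2 fold change -1.37, SE 0.20, adjusted p = 0.000834). Tlr4, the sensor of bacterial lipopolysaccharide and a candidate receptor of lactoferrin, was at 27.6, 29.2 and 30.1 CPM at 14 days, against 93.5, 66.6 and 70.3 CPM at 6 weeks (log2 fold change -1.41, SE 0.39, adjusted p = 0.0261), past the threshold under 16 of 21 settings, with adjusted p from 0.000821 to 0.0926. Of the 8 tested lactoferrin receptor candidates 3 were lower and 0 higher, and 1 without 6-week replicate 3.

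Several large falls belong to no list. Upp1, uridine phosphorylase, was at 13.1, 5.99 and 5.80 CPM at 14 days, against 115, 80.3 and 79.6 CPM at 6 weeks (log2 fold change -3.47, SE 0.37, adjusted p = 0.0001). Txnip, an inhibitor of thioredoxin and of glucose uptake, was at 620.0, 618 and 688 CPM at 14 days, against 2131, 1599 and 2097 CPM at 6 weeks (log2 fold change -1.597, SE 0.27, adjusted p = 0.00161). Lag3, an inhibitory receptor of lymphocytes, was at 2.01, 3.51 and 4.67 CPM at 14 days, against 18.5, 29.2 and 30.9 CPM at 6 weeks (log2 fold change -2.94, SE 0.29, adjusted p = 6.73e-05). Col14a1, a collagen gene, was at 1.61, 6.29 and 5.72 CPM at 14 days, against 72.9, 63.6 and 67.1 CPM at 6 weeks (log2 fold change -3.90, SE 0.42, adjusted p = 0.000123). Its lowest library, 14-day replicate 1, was also that of the lowest macrophage sum, and a link between them was not tested. Mcam, an adhesion protein, was at 19.1, 12.2 and 10.6 CPM at 14 days, against 184, 66.2 and 75.3 CPM at 6 weeks (log2 fold change -2.96, SE 0.41, adjusted p = 0.000542), with -2.34 without 6-week replicate 1. These 5 genes were drawn from genes without overlap, so the gap between their ages was set by that rule.

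Of 23 genes of the unfolded protein response 3 were higher and 8 lower (34.8%, against 9.26%), with a median of -0.28. The lower members were Calr, Xbp1, Pdia4, Pdia6, Dnajc3, Manf, Sdf2l1 and Creld2, of which several are folding factors of the endoplasmic reticulum. Sdf2l1 was at 9.02, 17.040 and 16.2 CPM at 14 days, against 37.047, 37.5 and 32.5 CPM at 6 weeks (log2 fold change -1.34, SE 0.22, adjusted p = 0.00145), and Creld2 was at 14.2, 13.964 and 17.3 CPM at 14 days, against 24.1, 27.1 and 23.4 CPM at 6 weeks (log2 fold change -0.71, SE 0.12, adjusted p = 0.00201). The higher members were Atf3, Dnajb9 (1.22), which encodes a co-chaperone, and Atf4 (1.02), a factor of the wider stress response. Secretory cells such as plasma cells use the same folding genes, and the part of their transcripts was not tested. Of 22 heat-shock genes 1 was higher and 4 lower. Hspa1b, an inducible chaperone with a near-identical copy, was at 14.5, 10.6 and 11.953 CPM at 14 days, against 129, 73.2 and 96.4 CPM at 6 weeks (log2 fold change -3.01, SE 0.42, adjusted p = 0.000562), and its copy Hspa1a at 19.2, 10.9 and 16.2 CPM at 14 days, against 109, 64.6 and 91.2 CPM at 6 weeks (log2 fold change -2.52, SE 0.37, adjusted p = 0.000716). The lower count was 2 without 14-day replicate 1 or 6-week replicates 2 or 3, and the higher count 4 without 2-day replicate 2.

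Of 22 genes of cholesterol synthesis and transport 8 were lower and 0 higher, but 3 without 14-day replicate 1 or 6-week replicates 2 or 3, and 2 with library totals alone. Cyp51, an enzyme of the pathway, was at 6.77, 7.59 and 8.53 CPM at 14 days, against 13.4, 18.1 and 16.3 CPM at 6 weeks (log2 fold change -1.06, SE 0.15, adjusted p = 0.000554). Of 30 lipid uptake and fatty acid genes 5 were higher and 5 lower, and the lower count was 3 and 2 without 14-day replicates 1 and 2 and 2 and 1 without 6-week replicates 2 and 3. Fabp5, a fatty acid carrier, was at 11.8, 10.3 and 10.3 CPM at 14 days, against 37.3, 24.4 and 31.4 CPM at 6 weeks (log2 fold change -1.53, SE 0.21, adjusted p = 0.00047), opposite to Cd36. Of 16 hypoxia response genes 1 was higher, Vegfa, and 4 lower, with 7 lower without 2-day replicate 2. Ndrg1 among them was at 65.5, 50.032 and 55.3 CPM at 14 days, against 125, 104 and 139 CPM at 6 weeks (log2 fold change -1.11, SE 0.19, adjusted p = 0.00171).

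Of 21 glycolysis genes 4 were lower and 0 higher, with a range of 1 to 9 lower: 1 without 14-day replicates 2 or 3 or 6-week replicate 2, 2 without 6-week replicate 1, 7 without 2-day replicate 1 and 8 without 2-day replicate 2. Of 30 oxidative phosphorylation genes 1 was higher, Cycs, which encodes cytochrome c, at 9.28, 7.54 and 6.91 CPM at 14 days, against 4.74, 3.55 and 4.78 CPM at 6 weeks (log2 fold change 0.86, SE 0.18, adjusted p = 0.00607). Of 29 cytosolic ribosomal protein genes 3 were lower and 0 higher, with 1 without 14-day replicates 2 or 3 or 6-week replicate 3, and 0 without 6-week replicate 1.

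For the 5 remaining promoter elements searched, read on both strands, shares are given in the same order. AP-1 (TGANTCA) was in 7.55% of promoters of higher genes, 7.85% of lower genes and 6.57% of all, and CRE (TGACGNCA) in 6.15%, 5.14% and 5.99%. CRE letters were in 7 of 20 promoters of immediate early genes. The NF-kB element (GGGANTTTCC or GGGANTTCCC) was in 1.49%, 2.24% and 1.12%, and in 10 of 29 promoters of the NF-kB list. C/EBP (TTGCGNAA) was in 1.12%, 1.5% and 1.35%, and the heat-shock element (GAANNTTCNNGAA) in 0.746%, 0.28% and 0.548%. Bases of 1 promoter can count for several elements, as where a CHR match runs into a response element. A missing match says only that these letters are not in the window.

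The earlier ages place these levels in a series, as values only, because the 2-day and 7-day libraries also differ in holding 1816 to 4010 counts of Y-linked genes each. Thbs1 averaged 10431 ± 1161, 5353 ± 1032, 3329 ± 497 and 57.7 ± 11.5 CPM at 2 days, 7 days, 14 days and 6 weeks (SD, n = 3 each), and Stfa1 averaged 7508 ± 2236, 4432 ± 375, 247 ± 36.5 and 18.6 ± 2.65 CPM at 2 days, 7 days, 14 days and 6 weeks. Olfm4 followed the same order, at 3168 ± 417, 1304 ± 274, 399.5 ± 15.3 and 101 ± 8.37 CPM at 2 days, 7 days, 14 days and 6 weeks, each age below the one before it. Igf2bp3 was lowest at the last age, at 32.9 ± 6.66, 23.4 ± 1.81, 22.8 ± 1.03 and 0.928 ± 0.167 CPM at 2 days, 7 days, 14 days and 6 weeks. Cxcr1 ran in the opposite order from 7 days on, at 0.264 ± 0.122, 0.179 ± 0.0752, 2.73 ± 0.920 and 44.5 ± 20.8 CPM at 2 days, 7 days, 14 days and 6 weeks.

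Other genes, apart from Apoe, were not ordered by age. Fosb was at 1359 ± 431, 183 ± 32.9, 1412 ± 124 and 102 ± 11.3 CPM at 2 days, 7 days, 14 days and 6 weeks, and Nr4a1 at 641 ± 116, 201 ± 5.68, 1309 ± 458 and 199.6 ± 13.8 CPM at 2 days, 7 days, 14 days and 6 weeks, high at 2 days and 14 days and low at 7 days and 6 weeks. Ptgs2 was highest at 14 days, at 119.8 ± 28.4, 30.6 ± 7.14, 666 ± 246 and 123 ± 44.2 CPM at 2 days, 7 days, 14 days and 6 weeks. Mki67 was highest at 7 days, at 166 ± 29.1, 652 ± 33.005, 328 ± 11.5 and 153 ± 30.3 CPM at 2 days, 7 days, 14 days and 6 weeks. Irf7 was lowest at 7 days and highest at 6 weeks, at 125 ± 26.6, 38.022 ± 4.60, 107 ± 9.30 and 266 ± 32.4 CPM at 2 days, 7 days, 14 days and 6 weeks, and so was Ifit1, at 17.3 ± 6.52, 1.89 ± 0.0353, 9.50 ± 2.70 and 60.7 ± 20.2 CPM at 2 days, 7 days, 14 days and 6 weeks. The mean of Apoe was higher at each age than at the one before it, at 216 ± 29.8, 282 ± 25.4, 329 ± 54.1 and 1125 ± 40.3 CPM at 2 days, 7 days, 14 days and 6 weeks. The inducible chaperone Hspa1a was at 14.4 ± 8.61, 11842 ± 1387, 15.4 ± 4.18 and 88.3 ± 22.4 CPM at 2 days, 7 days, 14 days and 6 weeks, far higher at 7 days than at the other ages.

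**Figure D5:**
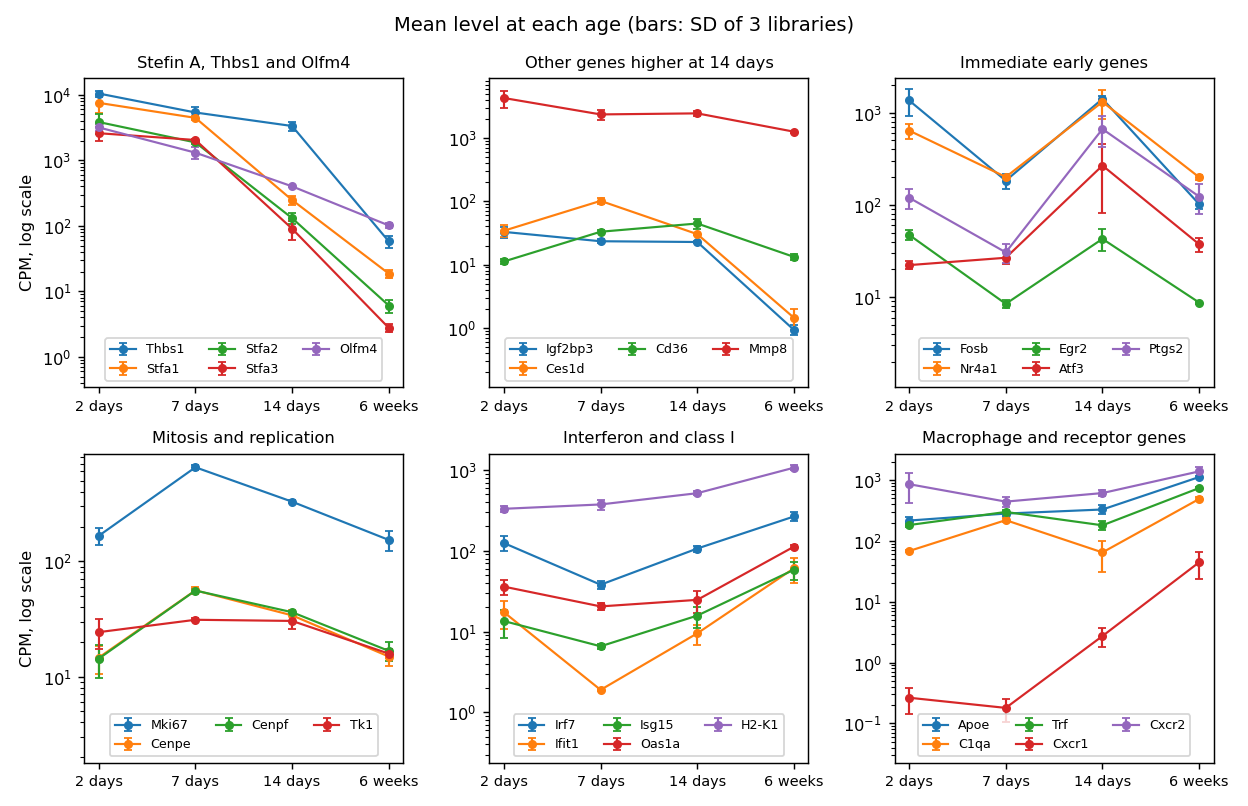
Mean CPM of 3 libraries on a log scale at 2 days, 7 days, 14 days and 6 weeks for named genes in 6 groups, with the SD as error bars. Thbs1, the stefin A genes and Olfm4 step down with age, immediate early genes such as Fosb alternate between 1412 CPM at 14 days and 102 CPM at 6 weeks, and interferon and macrophage genes are highest at 6 weeks.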

How the data were processed

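For 12 libraries of Ly6G+ spleen cells the authors deposited whole-number counts per gene in 1 table. The submitters' processing notes name RSEM 1.2.3, DESeq2 and the mouse build mm10, without a role for each. RSEM divides reads among similar genes, so counts of paralogs are uncertain, and strand is not stated, so antisense partners cannot be told apart. Of 38887 identifiers 37570 had a GENCODE M21 symbol (assembly GRCm38, that of mm10), and the remaining 1317 were kept in the library totals.

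Counts were scaled by trimmed mean of M-values factors and filtered with filterByExpr at a minimum count of 10. Each difference was tested with edgeR's quasi-likelihood test (edgeR 4.0.16, R 4.3.3) in 1 model of age over all 12 libraries, contrast 14 days minus 6 weeks, with Benjamini-Hochberg adjustment over 15494 genes. Totals were 34495767 counts or more, and counting error is large for genes at a few counts a library. SE is the absolute log2 fold change over the square root of F. The alternatives were other scalings and filters, DESeq2 1.42.0, limma-voom (limma 3.58.1), the 6 libraries alone, a replicate block and each library left out.

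The comparison, the 41 gene lists and the named genes were chosen with earlier results of these data known, so lists are given as counts and medians without a set test. Named genes were the 12 largest rises and falls by fold among called genes without overlap that reached 20 CPM at the higher of the ages, the 8 largest each way by CPM, a fixed set, and the 3 members of each list with the smallest p. Predicted genes, pseudogenes and immunoglobulin segments were left out of the ranked parts, and not every gene so named is described. Promoters are RefSeq sequences of 10953 tested genes, of which 2192 have more than 1 start. Each gene was counted once, as holding an element if any of its promoters did. The mitochondrial share of counts was not analysed here. Figures were drawn with matplotlib 3.10.9.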

Additional observations from a re-analysis of the deposited data

How the results depend on the processing

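The 2934 genes past the threshold became 2927 with DESeq2's size factors, 2784 with library totals alone (1614 higher and 1170 lower, with a median over all genes of 0.08), 2671 without an expression filter, 2847 with at least 1 CPM in 3 libraries, 3662 with the DESeq2 Wald test, 3070 with limma-voom and 3804 in the fit of the 6 libraries alone. The deviations of same-numbered libraries of both ages correlated at -0.02, 0.06 and -0.06, and those of other pairs at -0.09 to 0.11. With 3 libraries an age, such values cannot decide whether same-numbered libraries were handled together. With a replicate block the count was 2346 over 12 libraries and 3523 over the 6, and 78.9% and 86.5% of the main calls were shared. Leaving out 1 library gave 1677 (without 6-week replicate 3) to 4685 (without 2-day replicate 2) genes in all, 781 to 2422 higher and 886 to 2263 lower, and 1709, 823 and 886 without 6-week replicate 1. The cause was not tested. Of 163 named genes 146 were past the threshold, and 0 of these 146 changed sign. Of them 117 were past it under every alternative that tested them, which was all 21 except for Peg3, tested under 18. Of the 17 not past it, 4 (Camp, Mmp9, Fos and Slc27a2) passed under at least 1 alternative, and 5 (Il1b, Arg1, Ltf, Lcn2 and Cebpe) changed sign. With 3 libraries an age, small differences of strongly varying genes could not be seen, and levels of a few counts limit genes such as Arg1 and Peg3.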

Other observations

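A few genes were almost silent at one age, listed after their values were seen. Gm26825, a long noncoding RNA gene on chromosome 5 (5781530 to 5783636, build mm10), had 0 counts in each 14-day library, against 9787, 6136 and 5896 counts in the 6-week libraries, which with a floor of 3 counts over the 14-day age is at least 7132-fold lower at 14 days. It also had 0 counts in the 2-day and 7-day libraries. Ifi202b, an interferon-inducible gene of chromosome 1, had 0 counts in each 14-day library, against 539, 499 and 608 counts in the 6-week libraries (at least 538-fold lower at 14 days), and 1 count in the 9 libraries of the 3 younger ages together. Itln1, an intestinal lectin gene that was listed as a lactoferrin receptor candidate, had 0 counts in each 14-day library, against 155, 94 and 149 counts at 6 weeks (at least 130.1-fold lower), and its neighbouring pseudogene Gm9765 had 0, against 46, 23 and 46 counts. The labels name no strain, so a difference of genetic background between the ages and a difference of age cannot be told apart for these genes, as for the other results.

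The opposite pattern was found in Mkx, a homeobox gene, with 27, 58 and 43 counts at 14 days and 0 in each 6-week library (at least 43.5-fold higher), and in Shisa2, with 38, 35 and 46 counts at 14 days, against 1, 1 and 0 counts at 6 weeks. The immunoglobulin gene Ighg1 had 0, 0 and 2 counts at 14 days, against 286, 352 and 257 counts at 6 weeks. Identifier ENSMUSG00000083840, which has no symbol in the annotation used, was at 8.50, 6.83 and 8.15 CPM at 14 days, against 412, 296 and 253 CPM at 6 weeks.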
